A study of Homo sapiens with 12 samples.

Results

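The 10 genes described here encode the TGFβ ligands (TGFB1, TGFB2 and TGFB3), the activin β subunits (INHBA and INHBB), the latent TGFβ binding proteins (LTBP1, LTBP2, LTBP3 and LTBP4) and the activin antagonist follistatin (FST). They were chosen by gene symbol from the 19907 symbols with a value in each of the 12 libraries, and all 10 passed the filter on low values. The cells were MDA-MB-231, an established line of human triple-negative breast cancer with endogenous glucocorticoid receptor (GR). The wt-GR line was a single non-targeted clone recovered from the CRISPR population, and the S134A-GR line was clone #1 of a CRISPR knock-in that turned a phosphorylated serine of GR into alanine on both alleles (S134A), so genotype and clone cannot be told apart. All cells spent 18 h in starvation medium with 1% dextran-coated charcoal-stripped serum and then 6 h with vehicle or with recombinant TGFβ1 at 10 ng/mL, with no added GR ligand. The 4 groups were wt-GR under vehicle, wt-GR under TGFβ1, S134A-GR under vehicle and S134A-GR under TGFβ1, with 3 replicates each. The labels do not say whether replicates came from separate cultures, so p-values measure the spread between these libraries, which may be technical.

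TGFβ ligands are made as propeptides that furin-like proteases cut, and the propeptide stays bound to the mature dimer and holds it latent. LTBP1, LTBP3 and LTBP4 bind this latent complex and anchor it to fibrillin and fibronectin in the matrix, from which integrins and proteases release it, whereas LTBP2 is a matrix protein that does not form the same bond with the latent complex. Dimers of the INHBA and INHBB products are the activins, which signal through the same SMAD proteins as TGFβ, and follistatin binds activins and keeps them from their receptors. The added ligand was protein, so the TGFB1 RNA measured here is the cells' own.

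The deposited values are normalized counts, that is reads per gene divided by the size factor of the library. The 12 libraries held 56.4 to 129.8 recovered reads in units of 1e6. All these totals are above the average number of sequenced reads per sample that the study states, and the reason was not tested. The smallest count behind any value of the 10 genes was 13 reads, for INHBA. MDA-MB-231 markers such as VIM were high in every library (6 of 6 markers detected). The leukocyte list was near 0, with at most 36.5 summed normalized counts for its 2 listed genes, and the fibroblast genes DCN and LUM were at or near 0. GATA3 and EPCAM of the luminal list, all 3 genes of the endothelial list (PECAM1, VWF and CDH5) and PDGFRB of the fibroblast list were detected. CDH5, VE-cadherin, was lower in untreated S134A-GR cells (log2 fold change −3.28, FDR 2.26e-07 by limma). Summed levels of the 4 luminal genes ran from 1666 to 1882 in wt-GR libraries and from 1151 to 1559 in S134A-GR libraries. The sum hides opposed genes. Under vehicle EPCAM was lower in S134A-GR cells (378 ± 51.7 against 1024 ± 64.6 in wt-GR), whereas GATA3 was higher (1093 ± 79.4 against 808 ± 20.1). Those of the 3 endothelial genes ran from 1885 to 2032 in untreated and 1468 to 1511 in treated wt-GR cells, and from 1447 to 1572 and 928 to 1110 (S134A-GR). Those of the 4 fibroblast genes ran from 2113 to 2192 in untreated and 3719 to 4011 in treated wt-GR cells, and from 1850.2 to 1957 and 2053 to 2298 (S134A-GR). The fibroblast sum was nearly all PDGFRB, a platelet-derived growth factor receptor. PDGFRB had 2143 ± 35.9 and 3888 ± 151 normalized counts in untreated and treated wt-GR cells, and 1912 ± 59.4 and 2166 ± 119 in S134A-GR cells. Group means of COL3A1 ran from 0.584 to 11.1. The response of PDGFRB differed between the lines (S134A-GR minus wt-GR −0.68, FDR 0.000909 by limma). The part of these lists in the results below was not tested. In these bulk samples of clonal lines, fewer cells that express a gene and less RNA per cell cannot be told apart. Log2 fold changes are of the normalized count plus 1, fitted by limma over 18579 genes, and a gene is called at a Benjamini-Hochberg false discovery rate (FDR) under 0.05.

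Sequences upstream of the start are shown for the members whose TGFβ1 response differed between the lines (TGFB1, INHBB and FST), and for INHBA because it is the partner subunit of INHBB. They are the RefSeq promoter windows of GRCh38.p14, cut to bases that no annotated exon covers, read 5′ to 3′ on the strand of the gene. Capitals mark GGGCGG (an SP1 motif) and TATAAA in either orientation, and overlapping matches run together. The TGFB1 stretch lies at chr19:41353923-41354168 on the minus strand, that of INHBB at chr2:120345886-120346135 on the plus strand, that of FST at chr5:53480379-53480625 on the plus strand and that of INHBA at chr7:41703091-41703340 on the minus strand. The INHBA stretch lies inside the annotated span of its gene (chr7:41667168-41705834), upstream of an internal start, whereas those of TGFB1, INHBB and FST abut their genes.
TGFB1: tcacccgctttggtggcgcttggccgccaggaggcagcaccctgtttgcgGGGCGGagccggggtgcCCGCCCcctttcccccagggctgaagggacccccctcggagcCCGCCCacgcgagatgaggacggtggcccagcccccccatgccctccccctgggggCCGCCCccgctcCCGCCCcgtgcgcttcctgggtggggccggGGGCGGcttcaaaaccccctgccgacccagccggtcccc
INHBB: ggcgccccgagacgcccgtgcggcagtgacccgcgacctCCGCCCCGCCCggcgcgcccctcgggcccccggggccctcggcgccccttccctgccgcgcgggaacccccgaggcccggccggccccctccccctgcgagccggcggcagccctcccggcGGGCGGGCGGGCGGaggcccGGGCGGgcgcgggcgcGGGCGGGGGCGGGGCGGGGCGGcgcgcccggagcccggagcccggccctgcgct
FST: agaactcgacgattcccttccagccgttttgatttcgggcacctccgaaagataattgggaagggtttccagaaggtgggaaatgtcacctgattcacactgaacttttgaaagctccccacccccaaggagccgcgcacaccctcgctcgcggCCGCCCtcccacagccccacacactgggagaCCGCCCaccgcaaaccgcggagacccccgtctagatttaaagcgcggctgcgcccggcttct
INHBA: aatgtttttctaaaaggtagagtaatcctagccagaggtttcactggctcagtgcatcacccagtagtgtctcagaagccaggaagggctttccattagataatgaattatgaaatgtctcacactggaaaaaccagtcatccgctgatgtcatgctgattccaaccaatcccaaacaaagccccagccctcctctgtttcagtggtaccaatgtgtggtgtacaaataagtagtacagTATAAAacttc
The TGFB1 window held 6 matches to GGGCGG, the INHBB window 10 and the FST window 2, and the INHBA window held none but had a TATAAA 11 bases before the start. G and C made up 76.8% of the TGFB1 window, 89.6% of INHBB, 60% of FST and 42.8% of INHBA, against a median of 58% over 35116 windows of the same length. GGGCGG occurred in 42.6% of those windows and TATAAA in 10.7%. All 10 genes had at least 1 window, 15 in all, of which 8 held GGGCGG and 3 held TATAAA. The short SMAD motif CAGAC occurred in 38% of all windows and in 6 of the members' 15, those of TGFB2, TGFB3, LTBP1 and LTBP4. None of the 15 held the palindromic SMAD motif GTCTAGAC (0.182% of all windows), the AP-1 motif TGACTCA (4.20%) or the palindromic glucocorticoid response element, and 1 window of LTBP1 held the CRE motif TGACGTCA (1.65%). These are matches of letters in a window of 250 bases and not binding sites, and a missing match says only that those letters are not there.

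TGFB1, the most widely expressed TGFβ ligand, lies on the minus strand of chromosome 19 (GRCh38, chr19:41301587-41353922). In wt-GR cells its normalized count was 13275, 13394 and 15493 in the 3 vehicle libraries and 27249.7, 26773 and 26419 in the 3 TGFβ1 libraries. In S134A-GR cells it was 11475, 10871 and 10471 under vehicle and 14879, 15415 and 14697 under TGFβ1. Treated wt-GR libraries stood far above all others, and treated S134A-GR libraries only reached the range of untreated wt-GR cells. The last 2 groups overlapped and were 14997 ± 373 and 14054 ± 1248 (mean ± SD, n = 3). TGFβ1 raised TGFB1 by 0.94 on the log2 scale in wt-GR cells (SE 0.0529, FDR 1.49e-08 by limma), a 1.91-fold change. The rise in S134A-GR cells was 0.46 (FDR 2.66e-05), or 1.37-fold. HNRNPUL1, whose exons on the opposite strand cover 6.59% of the exonic bases of TGFB1, had means between 44411 and 47735 in the 4 groups.

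TGFB2 (chr1:218345336-218444619, plus strand) had 3798, 3389 and 3150.4 normalized counts in untreated wt-GR cells and 3314, 3817 and 3611 under TGFβ1. The S134A-GR libraries had 1716, 1519 and 1815 under vehicle and 2536, 2375 and 2296 under TGFβ1. Both wt-GR groups overlapped and lay above every S134A-GR library, and within S134A-GR cells the treated libraries lay above the untreated. The log2 response was 0.06 in wt-GR (95% interval −0.11 to 0.23, FDR 0.681) and 0.52 in S134A-GR cells (FDR 0.000328). Exons of TGFB2-AS1 (antisense) and TGFB2-OT1 share 34.2% of the exonic bases of TGFB2, and the strand setting of the counting is not given in the sources used here, so reads of TGFB2 and its antisense gene cannot be told apart. TGFB2-AS1 itself had 8.48 to 40.3 normalized counts over the 12 libraries, and TGFB2-OT1 was not analysed here.

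TGFB3 (chr14:75958097-75983011, minus strand) was the TGFβ ligand gene with the opposite pattern. It had 243, 239 and 231 normalized counts in untreated and 139, 169.9 and 165 in treated wt-GR cells. The untreated S134A-GR libraries had 329.9, 330.5 and 310.0, and the treated had 246, 293 and 242. S134A-GR libraries were the higher under either treatment, and treated S134A-GR libraries overlapped untreated wt-GR libraries. TGFB3 fell by 0.59 on the log2 scale in wt-GR cells (FDR 0.00186), while its log2 change in S134A-GR cells was −0.32 (FDR 0.0700). DESeq2 on the recovered reads called the S134A-GR decrease (−0.31, adjusted p = 0.0430), as did limma without replicate 2 of treated S134A-GR cells (−0.40, FDR 0.0391).

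INHBA, the β subunit of activin A (chr7:41667168-41705834, minus strand), was the lowest of the 10. Its normalized counts were 21.2, 37.0 and 31.6 in wt-GR cells under vehicle and 55.5, 58.6 and 65.2 under TGFβ1. S134A-GR libraries had 42.4, 39.5 and 42.8 under vehicle and 99.9, 55.7 and 105 under TGFβ1. Treated libraries were above untreated ones in both lines without overlap, and the treated groups of the lines overlapped each other. The rise was 1.01 on the log2 scale in wt-GR (SE 0.266, FDR 0.0148) and 0.99 in S134A-GR cells (FDR 0.0179). Both calls were fragile. The wt-GR call was lost without vehicle replicate 1 (0.79, FDR 0.0636) or TGFβ1 replicate 3 (0.94, FDR 0.0552). The S134A-GR call was lost without vehicle replicate 2 (0.96, FDR 0.0560), TGFβ1 replicate 1 (0.87, FDR 0.0719) or TGFβ1 replicate 3 (0.83, FDR 0.0773), and when only the 2 groups compared were fitted (0.99, FDR 0.0626).

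INHBB, the β subunit of activin B (chr2:120346136-120351803, plus strand), moved the other way. In wt-GR cells it had 1253, 1337 and 1296 normalized counts under vehicle and 585, 572 and 622 under TGFβ1. In S134A-GR cells it had 429.8, 426 and 451 under vehicle and 378, 385 and 407 under TGFβ1. The 4 groups did not overlap, and untreated wt-GR cells stood above the rest. INHBB fell by 1.13 on the log2 scale in wt-GR cells (SE 0.0682, FDR 3.03e-08), and its log2 change in S134A-GR cells was −0.16 (95% interval −0.31 to −0.01, FDR 0.128).

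**Figure D1:**
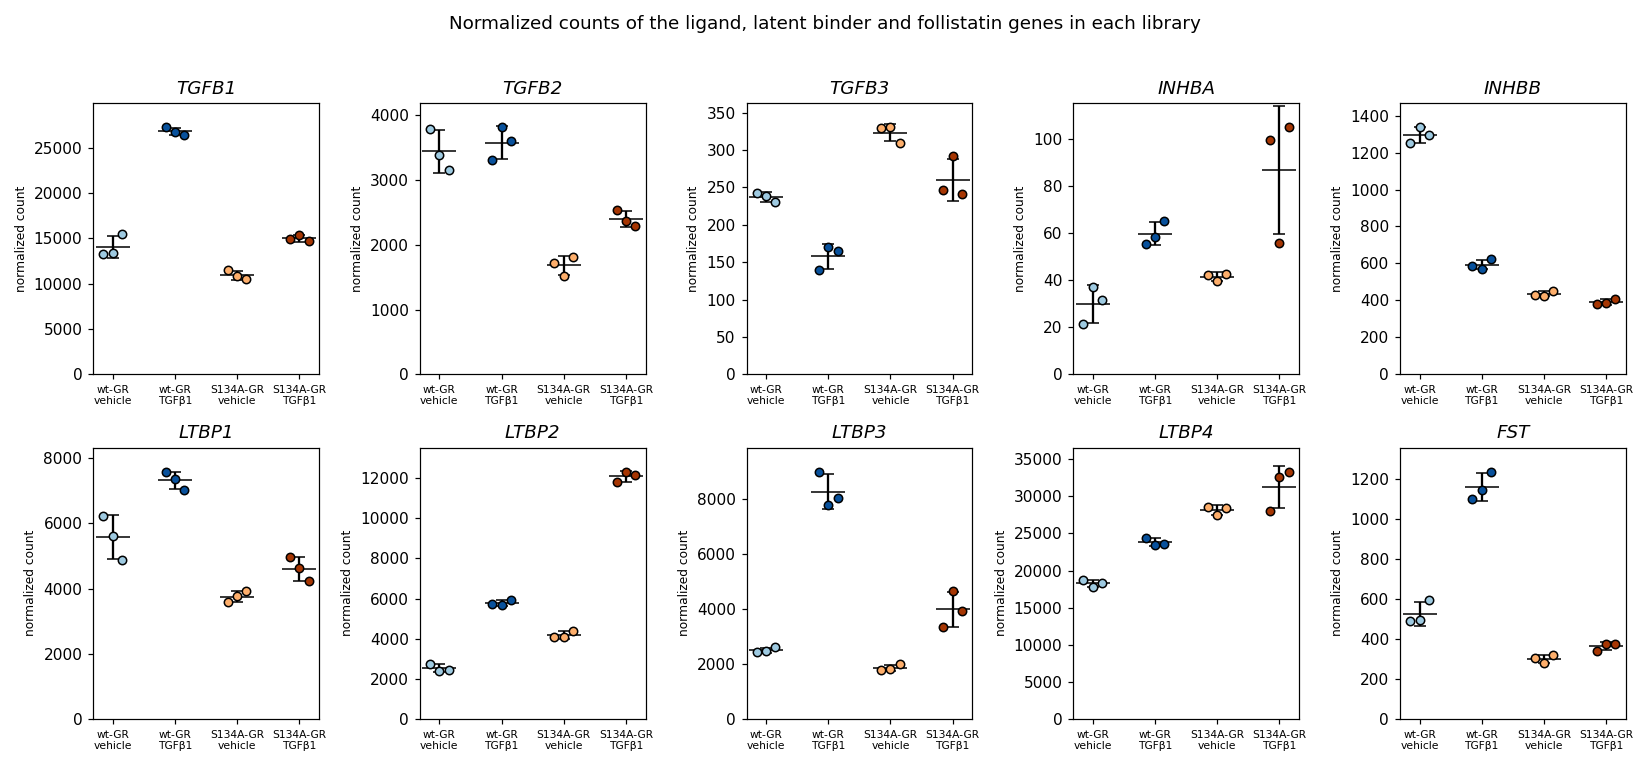
Normalized counts (y axis, from 0, a separate scale per gene) of the 10 genes in the 12 libraries. Points are libraries, wide bars the mean and whiskers the SD of 3 replicates. INHBB is highest in untreated wt-GR cells (1295 ± 42.0), FST and TGFB1 in treated wt-GR cells (1161 ± 68.8 and 26814 ± 417), and LTBP2 in treated S134A-GR cells (12084 ± 264).

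LTBP1 (chr2:32946953-33399509, plus strand) had 6236, 5604 and 4880.4 normalized counts in untreated wt-GR cells and 7566, 7345 and 7035 under TGFβ1. S134A-GR cells had 3575, 3757 and 3919 under vehicle and 4954, 4625 and 4218 under TGFβ1. Treated S134A-GR libraries only reached the lower end of untreated wt-GR libraries. TGFβ1 raised LTBP1 by 0.40 on the log2 scale in wt-GR (FDR 0.00187) and by 0.29 in S134A-GR cells (FDR 0.0164). The S134A-GR call was lost without vehicle replicate 1 (0.26, FDR 0.0732) or TGFβ1 replicate 1 (0.24, FDR 0.0701).

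LTBP2 (chr14:74498183-74612378, minus strand) had 2746, 2373 and 2462 normalized counts in untreated wt-GR cells and 5727, 5674 and 5948 under TGFβ1. S134A-GR cells had 4067, 4088 and 4404 under vehicle and 11787, 12292 and 12172 under TGFβ1. No groups overlapped, and S134A-GR libraries were the higher under either treatment. The rise was 1.20 on the log2 scale in wt-GR (FDR 8.95e-10) and 1.53 in S134A-GR cells (SE 0.0517, FDR 8.98e-11), or 2.29-fold and 2.89-fold.

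LTBP3, a partner of TGFβ latency that is also needed for secretion of the complex (chr11:65538559-65558930, minus strand), had 2429, 2485 and 2610.3 normalized counts in untreated wt-GR cells and 8977, 7776 and 8057 under TGFβ1. S134A-GR cells had 1797, 1814 and 2000.0 under vehicle and 3365, 4650.3 and 3947 under TGFβ1. Every treated library was above every untreated one, and the treated lines were far apart. The rise of 1.72 on the log2 scale in wt-GR cells (SE 0.0919, FDR 9.03e-09), or 3.29-fold, was the largest change of any member in either line. The rise in S134A-GR cells was 1.08 (FDR 1.23e-06).

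LTBP4 (chr19:40592883-40629818, plus strand) had 18758, 17809 and 18297 normalized counts in untreated wt-GR cells and 24411, 23401 and 23623 under TGFβ1. S134A-GR cells had 28611, 27433 and 28390.5 under vehicle and 28056, 32618 and 33247 under TGFβ1. All S134A-GR libraries were above all wt-GR libraries, and the S134A-GR groups overlapped through treated replicate 1. LTBP4 rose by 0.38 on the log2 scale in wt-GR cells (FDR 0.00011), and its log2 change in S134A-GR cells was 0.15 (FDR 0.0623). That change was called without TGFβ1 replicate 1 of S134A-GR cells (0.23, FDR 0.000695) and in count tests by DESeq2 (adjusted p = 0.0209) and by edgeR with RLE scaling (adjusted p = 0.0460).

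FST, which encodes follistatin (chr5:53480626-53487134, plus strand), had 489, 497 and 595 normalized counts in untreated wt-GR cells and 1099.8, 1148 and 1235 under TGFβ1. S134A-GR cells had 304, 279.8 and 322 under vehicle and 340.5, 376 and 376 under TGFβ1. No groups overlapped, and all S134A-GR libraries were below the wt-GR libraries. FST rose by 1.14 on the log2 scale in wt-GR cells (SE 0.0940, FDR 6.90e-07), or 2.21-fold. Its log2 change in S134A-GR cells was 0.27 (95% interval 0.07 to 0.47, FDR 0.0623), which DESeq2 called (adjusted p = 0.0391).

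The comparison of the lines under vehicle asks what differs with the phosphorylation site of GR before TGFβ1 is added. Of the 10 genes, 3 were higher in S134A-GR cells (TGFB3, LTBP2 and LTBP4) and 6 lower (TGFB1, TGFB2, INHBB, LTBP1, LTBP3 and FST), while 25.0% of all tested genes were called higher and 26.5% lower. INHBB had the largest difference, a log2 fold change of −1.57 (SE 0.0682, FDR 4.40e-10), and TGFB2 followed with −1.03 (FDR 9.98e-08). These were the 2 members past an absolute log2 fold change of 1, which 9.51% of tested genes passed, and TGFB2 no longer did without vehicle replicate 1 of wt-GR cells or vehicle replicate 2 of S134A-GR cells (−0.96 each). Of the others, FST differed by −0.80 (FDR 6.57e-06), LTBP2 by 0.73 (FDR 4.72e-08) and LTBP4 by 0.62 (FDR 2.47e-07). Differences of LTBP1, LTBP3 and TGFB1 were −0.57, −0.42 and −0.36, and that of TGFB3 was 0.44. INHBA was not called (0.50, 95% interval −0.08 to 1.07, FDR 0.139). The median over the 10 genes was −0.39 and that over all tested genes 0.02.

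Under TGFβ1, 3 members were higher (TGFB3, LTBP2 and LTBP4) and 6 lower (TGFB1, TGFB2, INHBB, LTBP1, LTBP3 and FST), against 23.1% and 25.7% of all tested genes. FST had the largest difference (log2 fold change −1.67, SE 0.0940, FDR 5.43e-09), so that treated S134A-GR cells held 364 ± 20.3 normalized counts where treated wt-GR cells held 1161 ± 68.8. LTBP2 (1.06, FDR 1.32e-09) and LTBP3 (−1.06, FDR 3.56e-07) were the other members past 1, against 8.46% of tested genes. These 2 LTBP genes differed in opposite directions. TGFB1 differed by −0.84 (FDR 1.67e-08), TGFB3 by 0.72 (FDR 0.000119), LTBP1 by −0.67 (FDR 5.77e-06), INHBB by −0.60 (FDR 4.88e-06) and TGFB2 by −0.57 (FDR 3.16e-05). LTBP4 differed by 0.39 (FDR 2.47e-05). INHBA was not called (0.48, FDR 0.156), except without replicate 2 of treated S134A-GR cells (0.77, FDR 0.0243).

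**Figure D2:**
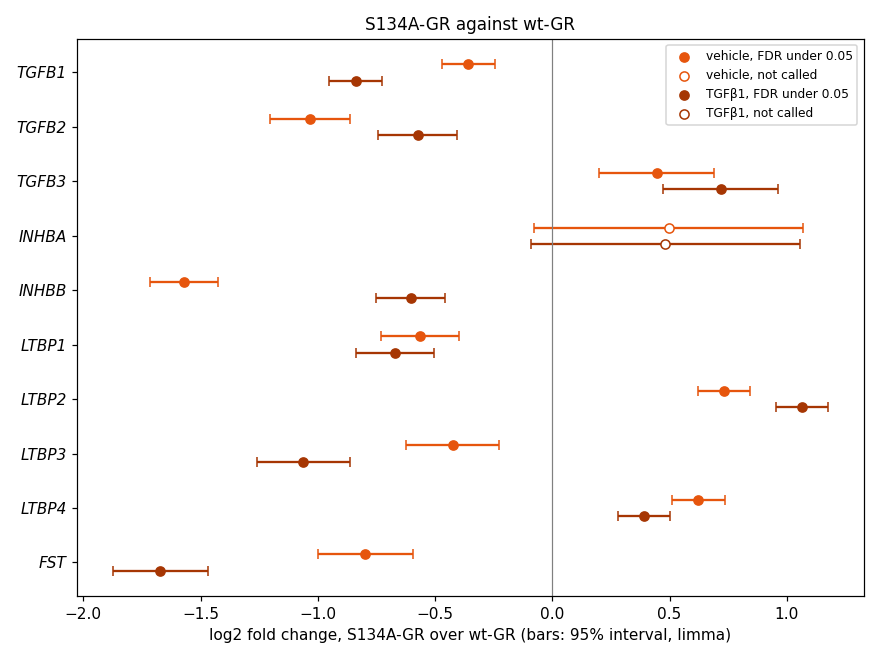
Log2 fold changes of S134A-GR over wt-GR (x axis) for the 10 genes (y axis), under vehicle (light) and under TGFβ1 (dark), with 95% limma intervals. Filled points have an FDR under 0.05. TGFB3, LTBP2 and LTBP4 lie to the right of 0 under both treatments, and FST reaches −1.67 under TGFβ1.

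The comparison of TGFβ1 with vehicle asks how the ligand acts on genes of its own system. In wt-GR cells 7 of the 10 genes rose (TGFB1, INHBA, LTBP1, LTBP2, LTBP3, LTBP4 and FST) and 2 fell (TGFB3 and INHBB), against 11.2% and 9.82% of all tested genes, with TGFB2 not called. Changes of INHBA, INHBB, LTBP2, LTBP3 and FST passed an absolute log2 fold change of 1, as did 2.29% of tested genes. In S134A-GR cells 6 rose (TGFB1, TGFB2, INHBA, LTBP1, LTBP2 and LTBP3) and 0 fell by limma, against 10.0% and 8.69% of all tested genes. TGFB3 and INHBB, whose means were lower, had an unadjusted limma p under 0.05 there, and DESeq2 called TGFB3. LTBP2 and LTBP3 passed an absolute log2 fold change of 1 in S134A-GR cells, as did 1.66% of tested genes. The median response of the 10 genes was 0.67 in wt-GR and 0.37 in S134A-GR cells, and that of all tested genes lay within 0.01 of 0 in both. As a check of the treatment, 6 of 6 common target genes rose in each line, among them PMEPA1 by 2.90 and 2.18 on the log2 scale in wt-GR and S134A-GR cells.

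**Figure D3:**
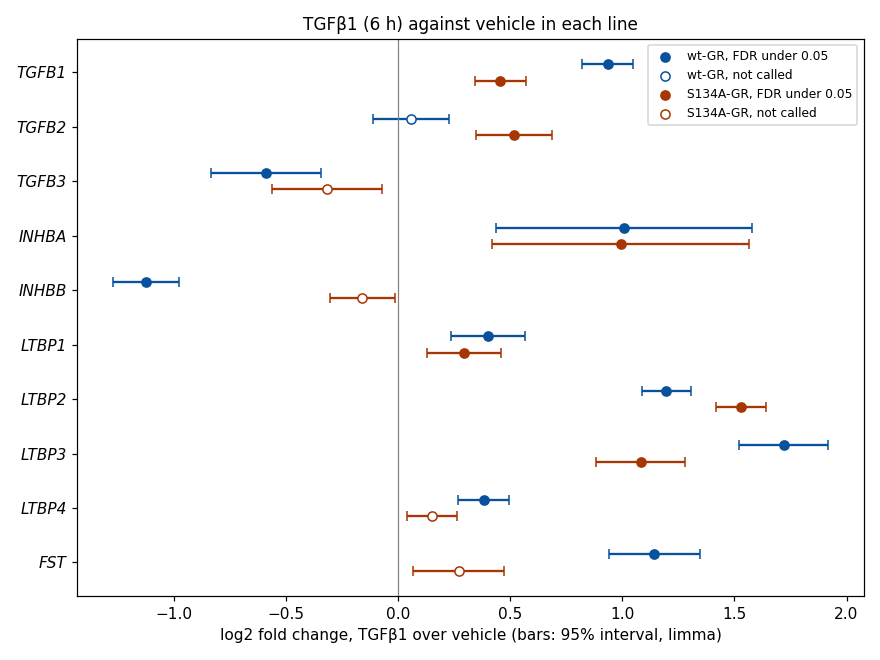
Log2 fold changes of TGFβ1 over vehicle (x axis) for the 10 genes (y axis) in wt-GR (blue) and S134A-GR (brown) cells, with 95% limma intervals. Filled points have an FDR under 0.05. INHBB lies at −1.13 in wt-GR and −0.16 in S134A-GR cells, and FST at 1.14 and 0.27.

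The difference between these responses, S134A-GR minus wt-GR, was tested in the same model. INHBB (0.97, SE 0.0964, FDR 0.000909) was 1 member with a positive difference among 0.167% of all tested genes called in that direction. FST (−0.87, SE 0.133, FDR 0.0121) and TGFB1 (−0.48, SE 0.0748, FDR 0.0126) had negative differences, as did 0.248% of tested genes. None of the 10 passed an absolute difference of 1, which 0.0592% of tested genes did by limma, although INHBB reached 1.00 without TGFβ1 replicate 3 of wt-GR cells. For all 3 the S134A-GR response had the same sign as the wt-GR response and was smaller. The calls of INHBB and FST held with each library left out in turn, whereas that of TGFB1 was lost without vehicle replicate 2 (−0.45, FDR 0.0554) or TGFβ1 replicate 1 (−0.47, FDR 0.0590) of wt-GR cells. LTBP3 (−0.64, FDR 0.0561), LTBP2 (0.33, FDR 0.0878) and TGFB2 (0.46, FDR 0.140) were not called by limma, but DESeq2 called all 3 (adjusted p = 0.000297, 0.00207 and 0.00888). Limma also called LTBP3 without vehicle replicate 3 of wt-GR cells (−0.67, FDR 0.0406) or TGFβ1 replicate 2 of S134A-GR cells (−0.75, FDR 0.0106), and TGFB2 without vehicle replicate 3 of wt-GR cells (0.52, FDR 0.0432). Differences of TGFB3 (0.27), LTBP4 (−0.23), LTBP1 (−0.11) and INHBA (−0.01) were not called, and the interval of INHBA, −0.82 to 0.80, was wide.

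**Figure D4:**
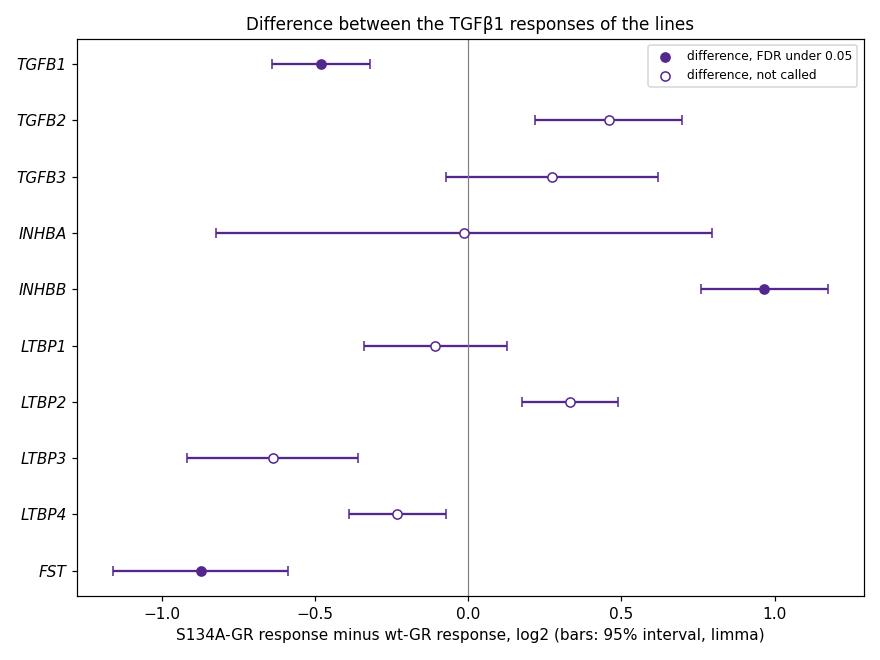
Response of S134A-GR cells minus response of wt-GR cells (x axis, log2) for the 10 genes (y axis), with 95% limma intervals. Filled points (TGFB1, INHBB and FST) have an FDR under 0.05, and INHBB lies furthest right at 0.97.

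Levels were compared between genes per kilobase of the Ensembl canonical transcript in GENCODE 44. TGFB1 was the highest of the 10 in wt-GR cells, with 5055 ± 449 normalized counts per kilobase under vehicle and 9645 ± 150.0 under TGFβ1 (mean ± SD, n = 3). In S134A-GR cells LTBP4 was the highest, with 5673 ± 126 under vehicle and 6311 ± 571 under TGFβ1, above TGFB1 at 3935 ± 182 and 5395 ± 134.3. Per kilobase of all annotated exons the order turned in treated S134A-GR cells, with TGFB1 at 4595 ± 114 and LTBP4 at 3860.3 ± 349, while untreated cells had 3351 ± 155 and 3470.4 ± 77.2. INHBA was the lowest in every group, with 4.95 ± 1.33 to 14.4 ± 4.49 per kilobase.

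TGFB1 made up 88.4% ± 1.66 of the summed level per kilobase of the 3 TGFβ ligand genes in untreated wt-GR cells and 93.6% ± 0.498 after TGFβ1. In S134A-GR cells its share was 91.2% ± 0.665 and 91.7% ± 0.310. The share therefore moved by 5.19 percentage points with TGFβ1 in wt-GR cells, with no overlap of libraries, and by 0.588 in S134A-GR cells, where libraries overlapped. TGFB2 held 10.3% ± 1.56 in untreated wt-GR cells and 5.93% to 6.96% in the other groups. For these shares and those below, 28 exact two-sided permutation tests of 3 libraries against 3 were run, whose smallest possible p is 0.1 (0.117 after Benjamini-Hochberg adjustment), so none could pass 0.05. Every comparison of TGFB1 shares had p = 0.1 by the exact permutation test other than TGFβ1 in S134A-GR cells (exact p = 0.3, adjusted 0.336).

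LTBP4 made up most of the summed LTBP level per kilobase in every group, with 68.8% ± 1.08 in untreated and 57.7% ± 0.531 in treated wt-GR cells and 79.5% ± 0.820 and 68.0% ± 1.66 in S134A-GR cells. Its share fell by 11.1 percentage points with TGFβ1 in wt-GR and by 11.5 in S134A-GR cells, while its own level was not called lower. In wt-GR cells LTBP3 gained most, from 9.69% ± 0.617 to 20.5% ± 0.903, and LTBP2 went from 5.57% ± 0.245 to 8.22% ± 0.354. In S134A-GR cells LTBP2 gained most, from 6.94% ± 0.233 to 15.4% ± 0.808, and LTBP3 went from 5.42% ± 0.260 to 8.87% ± 0.923. LTBP1 held 15.97% ± 1.54 and 13.5% ± 0.364 in wt-GR and 8.09% ± 0.363 and 7.68% ± 1.14 in S134A-GR cells. All these changes were without overlap between libraries (exact permutation p = 0.1), other than that of LTBP1 with TGFβ1 in S134A-GR cells (exact p = 0.6, adjusted 0.622). With the length of all annotated exons in place of the canonical transcript, LTBP3 held 13.6% and LTBP2 12.1% in treated wt-GR cells. In untreated wt-GR cells LTBP3 then held 6.21% and LTBP2 7.92%, the reverse of their order by the canonical transcript. The distance between those shares, and their order in untreated wt-GR cells, thus depend on the length used.

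**Figure D5:**
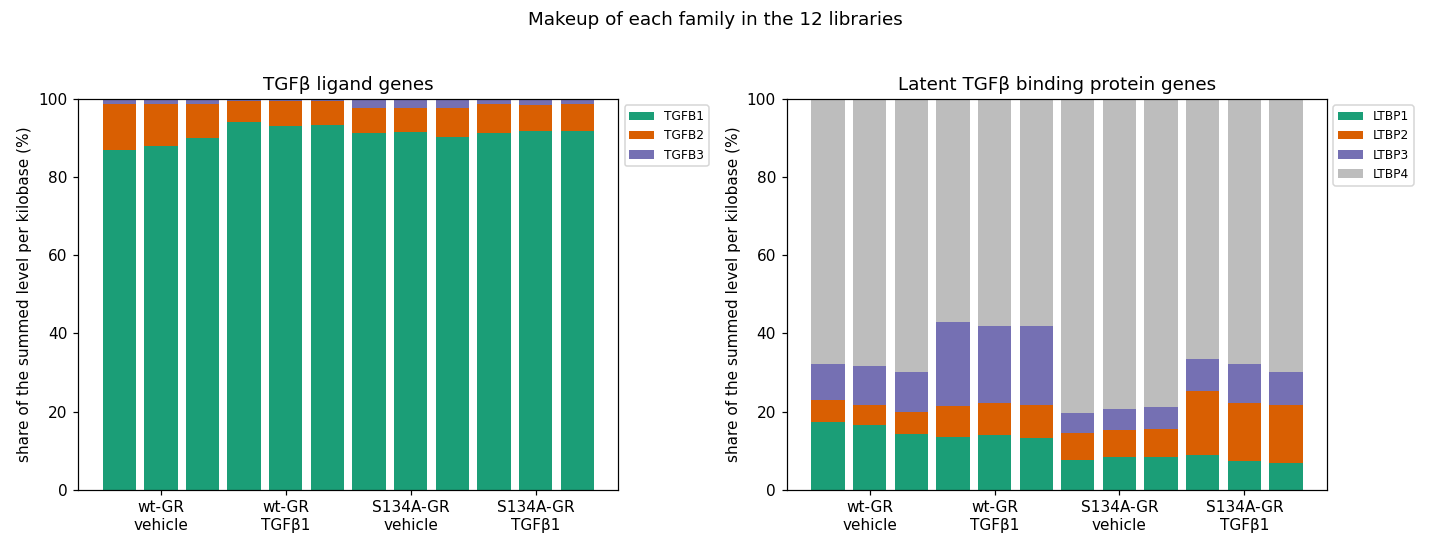
Share (y axis, percent) of each gene in the summed level per kilobase of the TGFβ ligand genes (left) and of the LTBP genes (right), 1 bar per library, with 3 replicates above each group name. LTBP3 widens to 20.5% in treated wt-GR cells and LTBP2 to 15.4% in treated S134A-GR cells.

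The log2 ratio of INHBA to FST per kilobase, the activin A subunit against its antagonist, was −5.57 ± 0.39 in untreated and −5.68 ± 0.03 in treated wt-GR cells. It was −4.25 ± 0.05 in untreated and −3.51 ± 0.55 in treated S134A-GR cells. Every S134A-GR library had a higher ratio than every wt-GR library, by 1.31 under vehicle and 2.16 under TGFβ1 (exact permutation p = 0.1 each, adjusted 0.117). With TGFβ1 the ratio changed by −0.11 in wt-GR cells, where libraries overlapped (exact p = 0.7), and by 0.74 in S134A-GR cells (exact p = 0.1). FST RNA exceeded INHBA RNA per kilobase in all 12 libraries. INHBA was not called between the lines (limma FDR 0.139 under vehicle and 0.156 under TGFβ1). FST was called lower in S134A-GR cells under both treatments. The ratio leaves out FSTL3, a second activin-binding protein. FSTL3 had 2332 ± 167 normalized counts in untreated wt-GR cells and 7741 ± 136 in treated ones. The S134A-GR cells had 2974 ± 128 and 9253 ± 411. The balance of activins with all their antagonists was not tested.

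Genes around the members in the pathway were counted from lists drawn up for this purpose. Of all tested genes 25.0% were called higher and 26.5% lower in untreated S134A-GR cells, 11.2% rose and 9.82% fell in wt-GR cells, and 10.0% rose and 8.69% fell in S134A-GR cells. The genes named first for each list had the largest called changes among those with a mean of at least 100 normalized counts. Genes with fewer reads could differ more, such as CHRDL1, a BMP antagonist (−4.35 at a mean of 10.8), and the protease gene MMP9 (−2.39 at 88.0). Both were picked with their values in view. CHRDL1 was at 0 in every S134A-GR library, so the size of its difference depends on the pseudocount. Of 24 genes that process, anchor or release latent TGFβ, 5 were higher in untreated S134A-GR cells and 10 were lower. The largest differences above that mean were in FN1, fibronectin (−2.10, FDR 7.88e-08), and ITGB3, the integrin β3 subunit (−1.24, FDR 1.77e-08). FN1 was uneven in untreated wt-GR libraries, from 29774 to 57099 normalized counts, against 9197 to 9951 in untreated S134A-GR libraries. In wt-GR cells TGFβ1 raised 10 of the 24 and lowered 2, led by ITGB8, the β8 integrin subunit that activates latent TGFβ (−1.62, FDR 5.44e-06), and FURIN, the propeptide protease (1.18, FDR 2.61e-11). In S134A-GR cells 9 rose and 2 fell.

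Of the 11 receptor genes, 1 was higher in untreated S134A-GR cells and 4 were lower, with TGFBR3, the coreceptor betaglycan, at −1.10 (FDR 3.16e-08) and ENG, endoglin, at 0.56 (FDR 8.68e-09). TGFβ1 raised 2 and lowered 2 in each line, and TGFBR3 (−1.09, FDR 1.06e-07) and ENG (0.78, FDR 8.05e-10) had the largest changes in wt-GR cells. Of 13 tested antagonist genes besides FST, 5 were higher in untreated S134A-GR cells and 2 were lower, with NOG, noggin, at 0.74 (FDR 2.29e-05) and TWSG1 at −0.45 (FDR 8.54e-07). The called antagonist genes numbered 4 in place of 7 without vehicle replicate 3 of S134A-GR cells. TGFβ1 raised 3 and lowered 2 in wt-GR cells and raised 3 and lowered 1 in S134A-GR cells. FSTL3, a second activin-binding protein related to follistatin, rose by 1.73 in wt-GR cells (FDR 3.03e-11), and NOG rose by 0.85 (FDR 2.38e-05). FSTL3 reached 7741 ± 136 normalized counts in treated wt-GR cells and 9253 ± 411 in treated S134A-GR cells.

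Of 19 tested genes for other ligands of the superfamily, 5 were higher in untreated S134A-GR cells and 5 were lower, with BMP2 at 2.05 (FDR 6.49e-07) and GDF15 at −1.08 (FDR 0.000374). TGFβ1 raised 2 and lowered 4 in wt-GR cells and raised 2 and lowered 2 in S134A-GR cells. BMP4 fell in wt-GR cells by 1.04 (FDR 1.36e-08) and GDF15 by 0.78 (FDR 0.0122). The response differed between the lines by limma for LEFTY1 and LEFTY2, which encode inhibitors of Nodal. Both lie outside the rule for named genes and were picked with their values in view. LEFTY1 went from 46.5 ± 3.86 to 334 ± 36.3 normalized counts with TGFβ1 in wt-GR cells and was 6.42 ± 3.32 and 4.21 ± 1.43 in S134A-GR cells. LEFTY2 was listed at 0 in all untreated libraries and had 118 ± 21.4 normalized counts in treated wt-GR cells and 4.96 ± 4.50 in treated S134A-GR cells. Among the other lists the response differed for 2 of 24 processing genes (FURIN and PLAU), 1 of 11 receptor genes (ENG) and 0 of the 13 antagonist genes. Of the antagonist genes, SOSTDC1 and TWSG1 had an unadjusted limma p under 0.05. For each gene called in these lists, LEFTY1 and LEFTY2 included, the S134A-GR response minus the wt-GR response was negative. Limma called 0.248% of all tested genes in that direction and 0.167% in the other. The receptor count was 0 in 14 of 21 alternatives, among them every fit without 1 library other than that without vehicle replicate 3 of wt-GR cells, and the processing count ranged from 1 to 3 and was 1 in 11 of 21. The count of other ligand genes ranged from 1 to 3. Of the genes named here, PLAU and SOSTDC1 were likewise picked with their values in view.

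For the members whose group means spanned at least 1 on the log2 scale, the genes with the nearest profiles over the 12 libraries were found by the root mean square difference of centred log2 values, among 12467 to 12468 genes with a mean of at least 100 normalized counts. TGFB1 was nearest to APCDD1L (0.0604), HMOX1 (0.0866) and PACSIN3 (0.113). TGFB2 was nearest to ETS1 (0.107), PNPT1 (0.109) and IL7R (0.115), and TGFB3 to PDGFRL (0.0915), FAM46B (0.0999) and CEBPA (0.108). LTBP3 was nearest to LOC79160 (0.136), MDFI (0.146) and SNAI1 (0.147), and LTBP2 to PALM2 (0.198), SPHK1 (0.206) and TUFT1 (0.207). For INHBB the nearest were LINC00261 (0.153), BIRC3 (0.177) and AQP3 (0.189), for FST SLC46A3 (0.222), SYT12 (0.265) and PPP1R14C (0.268), and for INHBA HSF2BP (0.256), CD3EAP (0.267) and FERMT1 (0.278). The profile of TGFB1 was matched more closely than those of FST, LTBP2 and INHBA. Group means spanned 1.29 on the log2 scale for TGFB1, 1.94 for FST, 2.26 for LTBP2 and 1.49 for INHBA. INHBA also had only 13 to 147 reads a library. The part of span and read depth in these distances was not tested.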

How the data were processed

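RNA-seq libraries of 2 MDA-MB-231 lines (75-base paired-end reads, HiSeq2500) were grouped by GEO's labels. The authors checked reads with FastQC 0.11.7, trimmed with Trimmomatic, mapped to hg38 using HISAT2, assigned reads to genes using featureCounts (Subread) and scaled by DESeq2 1.22.2 size factors. The deposited values are thus a signal, normalized counts, and not raw counts. The annotation and strand setting are not given in the sources used here. Reads were recovered from the step between values, of which 100% came out whole (tolerance 0.001 read), with size factors of 0.614 to 1.40.

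Genes with at least 10 recovered reads over the 12 libraries (18579) were tested with limma 3.58.1 (R 4.3.3, trend, empirical Bayes) on log2 values (normalized count plus a pseudocount of 1), with 4 group means in 1 model and Benjamini-Hochberg adjustment over all of them. Fold changes on this scale are understated for low genes. The tests by limma (pseudocount of 1), edgeR and DESeq2 were checked on simulated data with 200 changed genes. Those genes were drawn from genes with a mean of at least 100 normalized counts, which INHBA did not reach. Neither the filter nor the pseudocount was varied in that check. Genes were changed only in untreated S134A-GR libraries and scored only in the vehicle comparison between the lines. The test of the difference between responses was thus not checked. Alternatives were edgeR 4.0.16 and DESeq2 1.42.0 on the recovered reads, TMM scaling, pseudocounts of 0.5 and 16, 2 other filters, a replicate block, only the groups compared, other gene lengths, and each library left out. Replicates differed beyond sampling noise (chi-square over its degrees of freedom 8.69 to 43.7), so none was counted as a duplicate. The highest value was between vehicle replicates 1 and 3 of wt-GR cells.

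The members, lists and tests were chosen with earlier results of these data known. Named genes are the 10 members, the 2 genes of each list with the largest absolute log2 fold change (FDR under 0.05, mean of at least 100 normalized counts) under vehicle between the lines and for TGFβ1 in wt-GR cells, and the 3 nearest profiles for members spanning at least 1 on the log2 scale. A gene that this rule names is not reported here. Positions and exon lengths are from GENCODE 44, and promoters from RefSeq.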

Additional observations from a re-analysis of the deposited data

Results flagged for a closer look

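The TGFβ1 responses of 3 of the 10 genes differed between the lines by the limma test of the difference itself. Of all tested genes, limma called 0.167% with a positive difference and 0.248% with a negative one. The response of S134A-GR cells minus that of wt-GR cells was 0.97 for INHBB, −0.87 for FST and −0.48 for TGFB1 on the log2 scale. The TGFB1 call was lost without vehicle replicate 2 (limma FDR 0.0554) or TGFβ1 replicate 1 (FDR 0.0590) of wt-GR cells. In each line all 3 treated libraries were below the 3 untreated ones for INHBB, and above them for FST and TGFB1. No value in these groups of 3 libraries was screened for outlying samples.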

How the results depend on the processing

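Of 850 values of single members under the alternatives, 816 kept their direction and their side of the threshold, 10 were no longer called, 14 became called and 10 reversed. Of 425 counts over the gene lists and over members past a log2 fold change of 1, 33 moved by over 1.5 times, most of them counts of genes with a difference in response. The reversals were of values near 0 that were not called. The difference in response of INHBA (−0.01) was 0.064 with a pseudocount of 16, 0.089 and 0.10 by edgeR with TMM and RLE scaling and 0.10 by DESeq2, and ran from −0.18 to 0.28 with each library left out. The response of TGFB2 in wt-GR cells (0.06) ran from −0.0053 to 0.13 with each library left out. Genes with a difference in response numbered 77 by limma and 208 by DESeq2, and 22 to 166 with each library left out, the most without vehicle replicate 3 of wt-GR cells. The members among them numbered 3 by limma, 6 by DESeq2 and 2 to 5 with each library left out. Of 224 shares and ratios under the alternatives, 222 kept their direction. The exceptions were the change with TGFβ1 of the INHBA to FST ratio in wt-GR cells (−0.29 to 0.10 on the log2 scale) and of the LTBP1 share in S134A-GR cells (−1.05 to 0.0558 percentage points). The cause of these moves was not tested. Replicate numbers did not pair the libraries (mean r of deviations of same-numbered libraries 0.000891, from −0.155 to 0.154 over 12468 genes), and with a replicate block FST was also called in the S134A-GR response (0.27, FDR 0.0413), which made 7 members in place of 6, with 3 for the difference in response. No other call of a member changed with the block. Depth limits INHBA most, with 13 to 147 reads a library.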
